A study of Mus musculus with 4 samples.

Results

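Thick ascending limb cells of the mouse kidney are described here from 4 single-cell RNA libraries taken before and after an injection of FGF23, a phosphate-regulating hormone. They were chosen by raw counts of unique molecular identifiers (UMIs, each standing for 1 captured RNA molecule). A barcode was taken as a thick ascending limb (TAL) cell when it had 300 or more genes, at most 50% mitochondrial UMIs, 3 or more UMIs each of Slc12a1 and Umod, at most 1 UMI of Slc12a3 and at most 10 UMIs of Slc34a1. This rule found 1681 of 41076 barcodes that passed the gene and mitochondrial limits.

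The mice were C57BL/6 (purchased as C57BL/6J), 10 weeks old, of both sexes. Treated mice received 1 intraperitoneal injection of recombinant human FGF23 at 10 µg, and kidneys were taken at 1, 4 or 12 h. The control library is labelled 0 h with a dose of 0 µg, although the name of its matrix gives saline and 1 h. Each library combined dissociated kidneys of male and female mice after removal of dead cells, and 1 library was made per time, so no difference between times has a replicate check.

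The thick ascending limb reabsorbs salt without water, using the cotransporter NKCC2 (gene Slc12a1) at its luminal face, and is a main source of urinary uromodulin (gene Umod). Claudins in its tight junctions set which cations pass between cells: claudin-16 and claudin-19 carry calcium and magnesium reabsorption, while claudin-10 favours sodium. FGF23 signals through FGF receptors with the co-receptor Klotho (gene Kl), and its known tubular targets are the proximal and distal convoluted tubules.

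The 0, 1, 4 and 12 h libraries held 394, 382, 446 and 459 TAL barcodes. These were 3.89% (95% exact binomial interval 3.52 to 4.29), 4.03% (3.64 to 4.45), 4.01% (3.65 to 4.39) and 4.43% (4.04 to 4.85) of the barcodes kept in each, so the intervals overlapped. Such intervals, here and below, cover counting error only. Median UMIs per TAL barcode were 8243, 9540, 7773 and 8028, and the median mitochondrial share was 36.9%, 37.7%, 34.7% and 34.9%, against 15.4% to 20.3% in the other barcodes. Among TAL barcodes whose sex could be called from Xist and Y-linked genes, 64.3%, 56.5%, 54.4% and 60.9% were female-called. Doublet calls covered 4.19% to 8.06% of TAL barcodes per library, and 13 TAL barcodes shared a barcode sequence with another library. They were left in, and values without them are given where they differ.

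The threshold on Umod left 8 barcodes just inside at 3 UMIs and 9 just outside at 2. For Slc12a1 there were 17 barcodes at 3 UMIs and 11 outside at 2. The typical member was far from both limits, with a median of 127 Umod and 53 Slc12a1 UMIs. The limit on Slc12a3 removed 39 barcodes and that on Slc34a1 removed 260.

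The label was checked against marker levels, given in CPM, the UMIs of a gene summed over the TAL barcodes of a library and scaled to the same total in each. Slc12a1 (chromosome 2, 125152505 to 125230002, build GRCm38) and Umod (chromosome 7, 119462711 to 119479282) chose the members, so their levels are a description. Slc12a1 stood at 6874, 6576, 5942 and 5864 CPM at 0, 1, 4 and 12 h. Umod stood at 16695, 17393, 18589 and 17011 CPM. Cldn16 (chromosome 16, 26463135 to 26482765), which the rule did not use, stood at 91.4, 98.9, 98.6 and 105 CPM. The level of Cldn16 thus differed little between libraries, and the counting intervals of its ratios to 0 h all included no change. Cldn19 followed at 242, 230, 231 and 225 CPM, and Kcnj1, the ROMK potassium channel of the luminal membrane, at 456, 489, 462 and 438 CPM. After thinning every barcode to 2000 UMIs, 16.2% of TAL barcodes held a Cldn16 UMI (40.0% unthinned), against 0.0549% of distal convoluted tubule barcodes.

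The 10 TAL markers summed to 30367 to 32238 CPM in TAL barcodes and 661 to 715 CPM in all others. Slc12a1 and Umod are among the 10, so much of this contrast was fixed by the rule that chose the members. Markers of other cells were not absent. The 12 proximal tubule markers summed to 1530 to 2457 CPM in TAL barcodes, against 39893 to 53715 CPM in the other barcodes. They include Slc34a1, which the rule limited. The 10 immune markers summed to 365, 114, 87.7 and 179 CPM at 0, 1, 4 and 12 h, and the 4 connecting tubule markers to 57.0, 333, 88.5 and 113 CPM. Intercalated cell markers reached 51.7, 60.5, 170 and 161 CPM and endothelial markers 70.8, 55.0, 169 and 117 CPM. The 2 podocyte markers summed to 0.233 CPM or less in every library. The sums for other cell types were below the TAL sum and differed by library. As some markers served in the rule, these sums are a description.

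**Figure D1:**
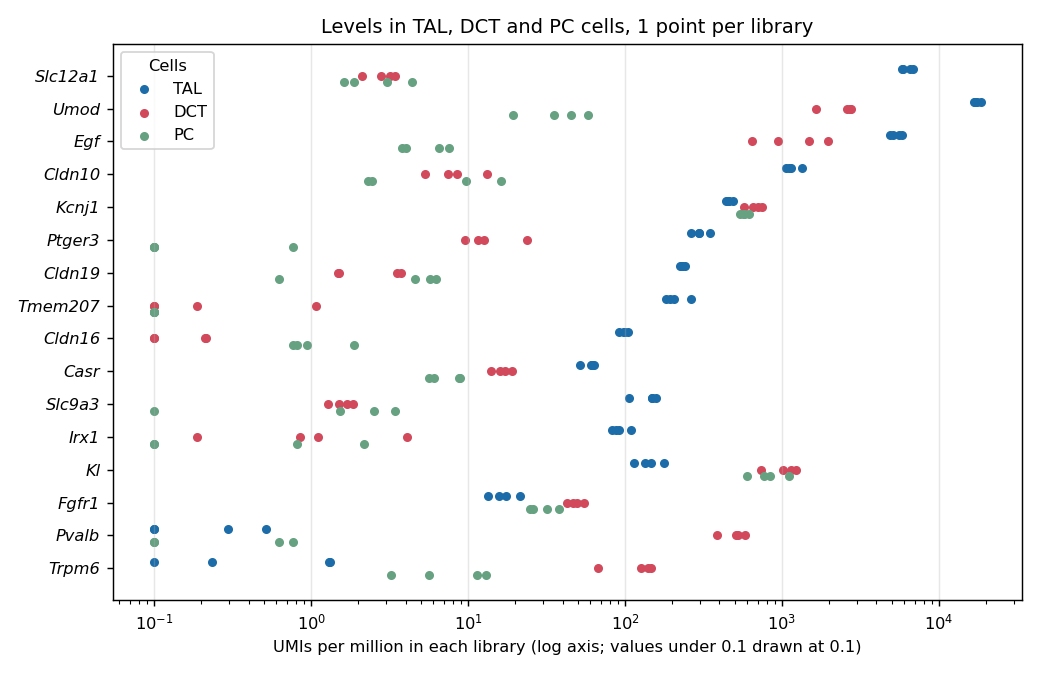
Levels of 16 genes in CPM (horizontal log axis, values under 0.1 drawn at 0.1) in TAL, distal convoluted tubule (DCT) and principal cell (PC) barcodes, 1 point per library. The TAL points of Cldn10 lie between 1064 and 1333 CPM and those of Kl below all DCT and PC points.

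For the time comparisons with 0 h, genes needed 50 or more UMIs over both libraries, and a 2-fold difference was the criterion in place of a test. A gene could pass this minimum through the library where it was high. The measured members of a list therefore differ by time and cell type. At 1 h, 37 of 8750 genes (0.423%) were higher and 36 (0.411%) lower. At 4 h, 94 (1.07%) were higher and 71 (0.811%) lower. At 12 h, 78 of 8906 (0.876%) were higher and 56 (0.629%) lower. In distal convoluted tubule (DCT) cells of the same libraries, chosen by Slc12a3 as set out further on, 0.866% and 1.75% of measured genes were higher and lower at 1 h, 2.97% and 3.19% at 4 h and 2.36% and 1.97% at 12 h. Whether the 2 cell types differ in response was not tested, because each time has 1 library.

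No salt transport gene passed 2-fold in TAL cells at any time. The list of 11 included, besides Slc12a1 and Kcnj1, Bsnd, the basolateral potassium channel genes Kcnj10 and Kcnj16, Atp1b1 and Fxyd2, and the sodium-proton exchanger gene Slc9a3. The medians of the 11 were 0.07, 0.02 and -0.01 on the log2 scale at 1, 4 and 12 h, beside 0.01, 0.02 and 0.01 over all genes measured. The absence of a 2-fold difference also held for the 11 genes of the kinase pathway that controls the cotransporters, including Wnk1, Wnk4 and Stk39. It held as well for the 11 measured genes of the claudin and divalent cation list, the 6 secreted proteins and the 12 measured hormone receptors. Slc12a1 and, among the secreted proteins, Umod served in the rule, so their values here are a description. Stk39 (the kinase SPAK) stood at 105, 95.5, 95.7 and 94.0 CPM and Casr, the calcium-sensing receptor, at 60.8, 51.6, 61.7 and 63.2 CPM. Ptger3, a prostaglandin E2 receptor, stood at 295, 295, 346 and 264 CPM. The counting interval of the Ptger3 ratio lay above 0 at 4 h (log2 ratio 0.23, 0.11 to 0.35) and below it at 12 h (log2 ratio -0.16, -0.28 to -0.04).

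TAL barcodes were next compared with distal convoluted tubule (DCT) barcodes, the segment that follows them, to show what sets TAL cells apart in the same libraries. DCT barcodes had 3 or more UMIs of Slc12a3, at most 1 each of Slc12a1 and Aqp2, and at most 10 of Slc34a1 (1870 barcodes). UMIs were summed per library and cell type, and the 4 pairs of sums were tested with edgeR's quasi-likelihood test with library as a block. Of 11554 genes tested, 843 (7.3%) were higher and 568 (4.92%) lower in TAL cells at an adjusted p under 0.05 and a 2-fold difference. With a mitochondrial limit of 25%, which left out most TAL barcodes, the counts were 420 and 275. Genes that either choice of barcodes had used were left out of the names and counts of lists.

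Cldn10, the sodium-favouring claudin, averaged 1161 ± 119 CPM (SD, n = 4 libraries) in TAL cells and 8.64 ± 3.36 in DCT cells. This was a log2 difference of 7.02 ± 0.20 (SE, edgeR adjusted p = 3.05e-07), higher in TAL cells in 4 of 4 libraries. Other genes at the top of the fold ranking were nearly without UMIs in DCT cells. Cldn16 averaged 98.4 ± 5.49 CPM against 0.106 ± 0.123, Tmem207 210 ± 36.2 against 0.314 ± 0.511 and Pcsk6, a proprotein convertase, 94.5 ± 1.98 against 0.0398 ± 0.0795. Also near the top were Eprn, Sim2 (a transcription factor), Nccrp1 (268 ± 31.8 against 0.739 ± 0.508 CPM) and the adenylyl cyclase gene Adcy1. The genes furthest below DCT were Pvalb, Lhx1, Slc8a1, Trpm6, Emx1, Calb1, S100g and Lhx1os. Among them, Trpm6, the magnesium channel of DCT, averaged 0.711 ± 0.693 CPM in TAL cells and 120 ± 35.9 in DCT cells.

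By role, TAL cells carried more of several hormone receptors than DCT cells. Of 15 tested receptors, 6 were higher and 2 lower, and the list's median log2 difference was 0.82 beside 0.01 over all genes tested. Of all genes tested, 7.3% were higher and 4.92% lower. Ptger3 was higher by 4.34 ± 0.23 on the log2 scale (edgeR adjusted p = 5.51e-06; 300 ± 34.1 against 14.3 ± 6.33 CPM). Avpr2, the vasopressin V2 receptor, was higher by 3.63 ± 0.20 (edgeR adjusted p = 7.58e-06; 25.6 ± 5.94 against 1.96 ± 1.19 CPM). Casr was higher by 1.77 ± 0.09 (edgeR adjusted p = 4.76e-06; 59.3 ± 5.28 against 16.5 ± 2.13 CPM). Vdr, the vitamin D receptor, was lower by 2.33 on the log2 scale in TAL cells, at 60.1 ± 2.83 against 291 ± 59.5 CPM. Each of these directions held in 4 of 4 libraries.

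The kinase pathway genes that differed were lower. The counts that follow stand beside 7.3% higher and 4.92% lower over all genes tested. None of 11 was higher and 3 were lower: Wnk1 (517 ± 127 against 3089 ± 475 CPM), Wnk4 (188 ± 20.6 against 379 ± 50.1 CPM) and Klhl3, a ligase adaptor that targets the WNK kinases (33.1 ± 4.78 against 361 ± 175 CPM). Among the transcription factors, 5 of 8 were higher and none lower. Irx1 averaged 92.7 ± 11.3 CPM in TAL cells and 1.55 ± 1.72 in DCT cells, and Irx2 68.9 ± 9.88 against 0.833 ± 1.04. The exchanger gene Slc9a3 averaged 140 ± 23.5 CPM against 1.58 ± 0.253. The 13 mitochondrially encoded genes gave 0 higher and 0 lower, with a median log2 difference of 0.01.

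Principal cells of the collecting duct (3 or more UMIs of Aqp2, at most 1 each of Slc12a1, Slc12a3 and Atp6v1g3, and at most 10 of Slc34a1, 558 barcodes) served as a more distant comparison. Of 11613 genes tested by edgeR in the same way, 1127 (9.7%) were higher and 1106 (9.52%) lower in TAL cells. Egf, which encodes a growth factor secreted by the distal nephron, averaged 5339 ± 439 CPM in TAL cells and 5.46 ± 1.82 in principal cells (log2 difference 10.33 ± 0.13, edgeR adjusted p = 9.16e-14). Ptger3, Nccrp1, Pla1a and Sim2 were also among the furthest above, and no UMI of Tmem207, Dusp15 or Adcy1 was found in principal cells of any library. Among the furthest below were Slc8a1, Muc20, S100g, Col26a1, Ptges, Kcne1 and Scnn1b, the last a subunit of the epithelial sodium channel at 4.36 ± 2.56 against 581 ± 112 CPM.

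Against principal cells, 11 of 13 mitochondrially encoded genes were higher, with a median log2 difference of 1.17 beside 0.00495 over all genes tested. Of all genes tested, 9.7% were higher and 9.52% lower, for this and the other lists. The creatine kinase gene Ckb averaged 1072 ± 75.9 CPM against 10.6 ± 2.75, and Slc5a3, a myo-inositol transporter, 1148 ± 133 against 94.3 ± 49.9. Immediate early genes, which growth factors and cell stress induce within minutes, were lower in TAL cells for 17 of 25 and higher for 0. Fos averaged 32.9 ± 14.6 CPM in TAL cells and 312 ± 143 in principal cells (log2 difference -2.85 ± 0.13, edgeR adjusted p = 2.78e-09). The tubule injury list gave 0 higher and 11 lower of 18, among them Clu, Krt18 and Lcn2.

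Within the TAL cells many barcodes held both kinds of claudin. After thinning to 3000 UMIs, 39.3% of 1577 barcodes held UMIs of both Cldn10 and Cldn16 or Cldn19. A further 22.6% held Cldn16 or Cldn19 alone, 30.5% Cldn10 alone and 7.61% none of the 3. Cldn10 was found in 63.4% of barcodes with Cldn16 or Cldn19 and in 80.0% of those without, a difference given as a description since the claudins share each barcode’s depth. The share with both was 40.1%, 41.8%, 40.2% and 35.4% at 0, 1, 4 and 12 h, with overlapping intervals.

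To compare the ends of this range, 339 barcodes with 2 or more UMIs of Cldn16 plus Cldn19 and none of Cldn10 (Cldn16-type) were set against 187 with 2 or more of Cldn10 and none of the other pair (Cldn10-type). Of 6838 genes tested by edgeR, 174 (2.54%) were higher and 279 (4.08%) lower in the Cldn16-type. The 3 claudin genes are left out of what follows. Median UMIs were 9017 in the Cldn16-type and 5309 in the Cldn10-type. Leaving out each gene's highest barcode in each sum left 153 lower genes, a mitochondrial limit of 25% left 69 higher and 101 lower, and leaving out the 1 h library left 174 lower.

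Of 10 tested hormone receptors, 3 were higher in the Cldn16-type (Pth1r, Casr and Vdr) and 1 was lower (Ptger3), beside 2.54% and 4.08% of all genes. Pth1r, the parathyroid hormone receptor, stood at 875 ± 101 against 102 ± 53.2 CPM (log2 difference 3.17 ± 0.18, edgeR adjusted p = 1.17e-08). Casr stood at 107 ± 18.9 against 30.04 ± 18.02 CPM (1.998 ± 0.30, edgeR adjusted p = 2.75e-04). Vdr stood at 95.8 ± 11.4 against 29.1 ± 9.55 CPM (1.74 ± 0.23, edgeR adjusted p = 8.80e-05). Kl, the FGF23 co-receptor, was likewise higher, at 208 ± 49.2 against 83.7 ± 23.5 CPM (1.42 ± 0.18, edgeR adjusted p = 5.45e-05). All 4 were higher in 4 of 4 libraries.

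The basolateral potassium channel genes Kcnj10 and Kcnj16 were higher in the Cldn16-type too, by 1.99 ± 0.20 and 1.34 ± 0.13 on the log2 scale. Wnk1 stood at 1280 ± 342 against 177 ± 15.9 CPM and Egf at 8526 ± 779 against 3012 ± 766 CPM. Beyond the lists, the largest folds belonged to Tmem52b (825 ± 103 against 14.3 ± 13.2 CPM), the transcription factor gene Foxq1 (282 ± 57.6 against 6.46 ± 6.16 CPM), Enox1, Col5a2, Shd, Ggt1 and Zfp503. The neutrophil gene S100a8 also met the naming rule, with 72.3% of its UMIs from 1 barcode.

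In the Cldn10-type, Ptger3 stood at 431 ± 58.0 CPM against 20.02 ± 4.68 in the Cldn16-type (log2 difference -4.32 ± 0.18, edgeR adjusted p = 2.01e-10). Irx1 stood at 142 ± 43.9 against 10.5 ± 4.16 CPM, Irx2 at 81.9 ± 12.4 against 18.2 ± 3.63 CPM and Fxyd2, the gamma subunit of the sodium pump, at 8475 ± 617 against 2607 ± 91.0 CPM. Ptgds, a prostaglandin D synthase, stood at 92.0 ± 7.20 against 2.51 ± 1.24 CPM and was found in 71 of the 187 barcodes. Esam, an adhesion molecule gene, was found in 67 of them, while Aadat and Slc6a6 had 82.2% and 72.3% of their UMIs in 1 barcode. All of these genes were higher in the Cldn10-type in 4 of 4 libraries, although Slc6a6 at 0 h was at 4.52 against 4.19 CPM.

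Other genes with large folds towards the Cldn10-type were smooth muscle genes held by very few barcodes. Rgs5, Tagln, Myl9, Mgp, Cald1 and Acta2 had UMIs in 4 or 5 barcodes each, and 58.9% to 87.6% of their UMIs came from 1 barcode. Stroma markers summed to 181, 359, 57.7 and 13.3 CPM at 0, 1, 4 and 12 h in the Cldn10-type and 0 to 4.19 CPM in the Cldn16-type. Proximal tubule markers also moved with the types, at 918, 10539, 5283 and 3792 CPM in the Cldn10-type and 506 to 861 CPM in the Cldn16-type, and Cldn10 itself stood at 342 to 373 CPM in proximal tubule cells (11 or more UMIs of Slc34a1, 25051 barcodes). Ptger3 and Irx1 averaged 1.18 and 1.45 CPM in proximal tubule cells, and Fxyd2 averaged 6296 CPM there. Other markers also differed between the types in single libraries. In the Cldn10-type, endothelial markers summed to 472 CPM at 1 h (3.52 in the Cldn16-type), intercalated cell markers to 349 CPM at 4 h (116) and principal cell markers to 719 CPM at 12 h (2.40). Immune markers summed to 626 CPM at 0 h in the Cldn16-type and 45.2 CPM in the Cldn10-type. The part of RNA from these cells in the other differences was not tested.

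**Figure D2:**
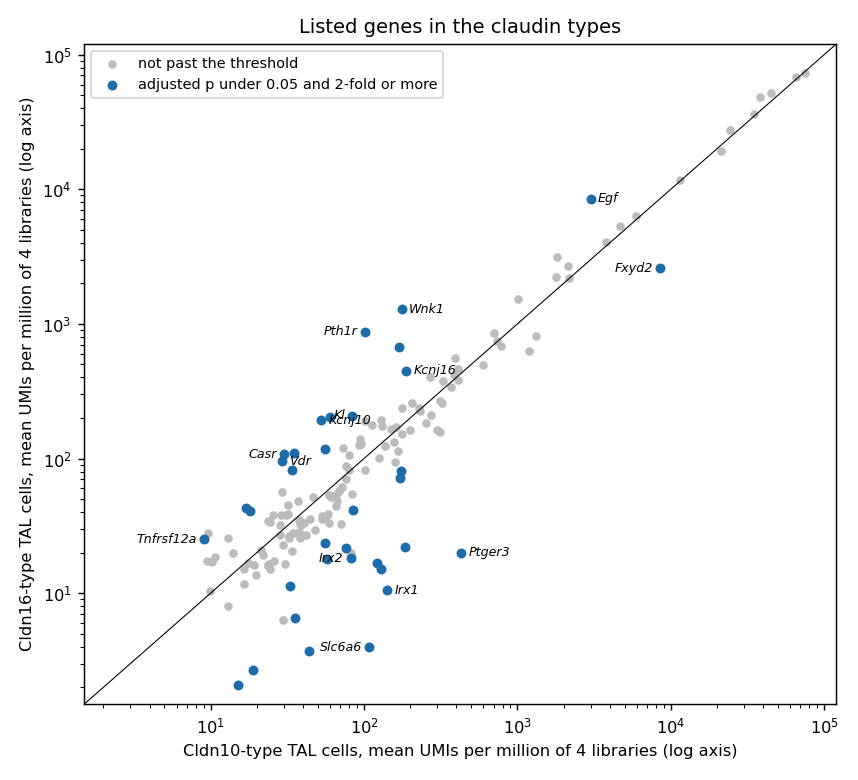
Mean levels of the listed genes over 4 libraries in Cldn16-type (vertical axis) and Cldn10-type (horizontal axis) TAL barcodes, in CPM on log axes, with blue points past the edgeR threshold and some genes labelled. Pth1r, Wnk1 and Egf lie above the diagonal of equal levels, and Ptger3, Irx1 and Fxyd2 below it.

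The FGF23 co-receptor gene Kl and the receptor gene Fgfr1 were lower in TAL cells than in DCT cells. Kl (chromosome 5, 150952607 to 150993817) stood at 147, 177, 115 and 134 CPM at 0, 1, 4 and 12 h in TAL cells. In DCT cells it stood at 1135, 1231, 1021 and 738 CPM, so the groups did not overlap. The TAL level was lower by 2.92 ± 0.11 on the log2 scale than in DCT cells (edgeR adjusted p = 1.02e-06; 143 ± 26.2 against 1031 ± 213 CPM) and by 2.14 ± 0.10 than in principal cells (edgeR adjusted p = 4.05e-09; 826 ± 210 CPM). At 2000 UMIs per barcode, 22.1% of TAL barcodes held a Kl UMI (51.9% unthinned), against 61.1% of DCT and 1.84% of endothelial barcodes (3 or more UMIs of Kdr plus Emcn), which should lack it. Median depths were 8264, 10862 and 2478 UMIs in that order.

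Fgfr1, the receptor most often paired with Klotho, stood at 17.3, 21.6, 13.5 and 15.6 CPM in TAL cells and 46.8, 42.5, 54.6 and 49.1 CPM in DCT cells (log2 difference -1.59 ± 0.16, edgeR adjusted p = 1.78e-04). Fgfr4 was higher in TAL cells at low levels, 4.46 ± 0.881 against 0.844 ± 0.389 CPM (edgeR adjusted p = 0.00355). Klb, the co-receptor of other endocrine FGFs, had no UMI in TAL cells of any library. Of 13 tested genes of the FGF receptor list, 2 were higher and 2 lower than in DCT, with a median log2 difference of 0.11. Over all genes tested, 7.3% were higher and 4.92% lower. None of the list's 10 measured genes passed 2-fold over time in TAL cells.

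Many genes with large differences over time had much of their UMIs in single barcodes. Of genes with 100 or more UMIs past 2-fold, the mitochondrial, ribosomal, sex-linked and other gene classes barred from naming left out, 0 of 19 at 1 h, 15 of 50 at 4 h and 14 of 56 at 12 h had UMIs in at least 10% of TAL barcodes and no barcode with over 10% of them, in the library where they were higher. This criterion was set after the values were seen. Clu, a chaperone gene raised in injured tubules, stood at 30.3, 59.7, 281 and 73.5 CPM, and 79.6% of its UMIs at 4 h were in 1 barcode. S100g, a connecting tubule calcium-binding protein gene, stood at 45.2, 292, 71.6 and 77.9 CPM, with 41.1% in 1 barcode at 1 h. The neutrophil gene S100a9 stood at 177, 9.21, 21.0 and 0 CPM, and at 4 h 92.6% of it was in 1 barcode. With barcodes over 25% mitochondrial UMIs left out (most TAL barcodes), the log2 ratio at 1 h changed sign for S100g (-2.60) and S100a9 (2.17). Akr1c18, Ccl5, Ren1 (99.9% in 1 barcode at 4 h), Lyz2 and Slc26a4 were likewise held by few cells, with UMIs in 8 or fewer TAL barcodes of each library.

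**Figure D3:**
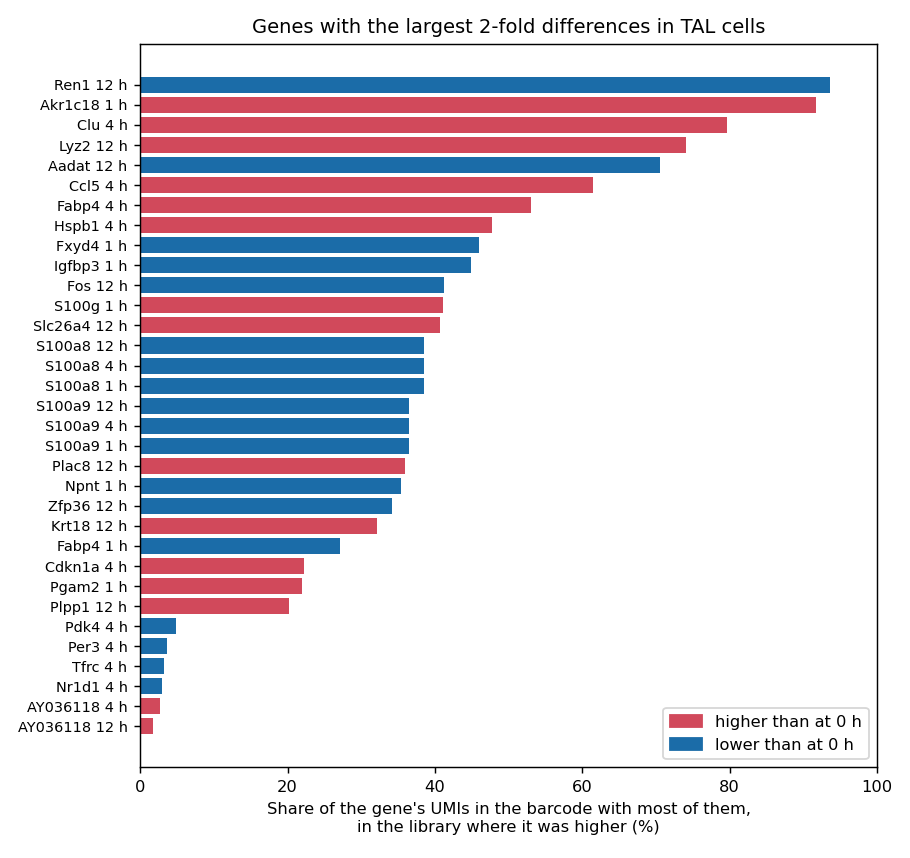
For the genes with the largest 2-fold differences from 0 h in TAL barcodes, the share of the gene's UMIs held by the 1 barcode with most of them (percent), in the library where the gene was higher. Clu at 4 h reached 79.6%, while Nr1d1 at 4 h was at 2.94%.

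The immediate early genes were not higher together in TAL cells at 1 h. Of 15 measured, 1 was 2-fold or more higher (Klf4, 7.05 to 16.6 CPM) and 1 lower (Atf3), with a median log2 ratio of 0.08 beside 0.01 over all genes. Egr1, a transcription factor gene that the ERK kinase pathway induces, stood at 21.1, 27.6, 18.4 and 6.999 CPM at 0, 1, 4 and 12 h. Its log2 ratio at 1 h was 0.38, with a counting interval (-0.06 to 0.84) that included no change. In DCT cells Egr1 stood at 33.99, 492, 154 and 17.3 CPM, and in proximal tubule cells at 24.4, 208, 20.5 and 6.35 CPM. At 2000 UMIs per barcode, 3.13% of TAL barcodes held an Egr1 UMI at 0 h and 4.24% at 1 h, against 6.79% and 57.2% of DCT barcodes and 18.5% and 13.4% of endothelial barcodes. Unthinned, the TAL shares were 7.87% and 12.6%.

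Other members were lower or little higher at 1 h. Fos stood at 50.5, 36.6, 29.3 and 15.4 CPM and Junb at 62.0, 39.5, 46.4 and 30.6 CPM in TAL cells. Hbegf, an EGF receptor ligand, stood at 15.6, 22.6, 18.2 and 12.1 CPM in TAL cells and at 5.98, 333, 299.98 and 21.2 CPM in DCT cells. Klf6 stood at 51.7, 76.8, 47.0 and 28.0 CPM, and its log2 ratio at 1 h was 0.57 (0.30 to 0.85). With barcodes over 25% mitochondrial UMIs (most TAL barcodes) left out, the log2 ratios at 1 h were -0.64 for Egr1 and -0.11 for Klf6. The list's median at 1 h was then -0.64. With all TAL barcodes kept, 2 of 16 measured genes were 2-fold or more higher at 4 h (1.07% of all genes were) and 0 lower. The median at 4 h was 0.23, and -0.26 without barcodes holding other types' markers.

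At 12 h, 7 of 14 measured immediate early genes were 2-fold or more lower (0.629% of all genes were) and 0 higher, with a median log2 ratio of -0.95. Egr1 was at a log2 ratio of -1.60 (-2.26 to -0.96), Fos at -1.71 (-2.15 to -1.30) and Junb at -1.02 (-1.35 to -0.70). Fosb, Zfp36, Ier2 and Btg2 were the others. Other cell types were low as well: the list's median at 12 h was -0.97 in DCT, -0.93 in principal and -0.91 in proximal tubule cells. With each gene's highest barcode left out the TAL median was -0.58, and Fos was at -1.29. Of the Fos UMIs in TAL barcodes at 0 h, 41.3% were in 1 barcode.

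The feedback inhibitors of ERK signalling, which accumulate when the pathway is active, were not 2-fold higher at any time. Dusp6, an ERK phosphatase, stood at 35.2, 41.0, 23.1 and 23.1 CPM in TAL cells, against 29.7, 83.7, 154 and 71.8 CPM in DCT cells and 22.9, 83.0, 64.7 and 33.6 CPM in proximal tubule cells. Spry2, a receptor tyrosine kinase inhibitor, stood at 23.2, 16.8, 15.05 and 11.9 CPM in TAL cells and 9.62, 25.6, 32.4 and 18.8 CPM in DCT cells. Of the measured members in TAL cells, 0 of 11 at 1 h, 0 of 11 at 4 h and 0 of 12 at 12 h were 2-fold or more higher. At 4 h, 1 of 11 was 2-fold or more lower (0.811% of all genes were). The medians at 1, 4 and 12 h were 0.08, -0.34 and -0.21. In DCT cells 6 of 13, 12 of 17 and 7 of 15 were higher (0.866%, 2.97% and 2.36% of all genes were), with medians of 0.91, 1.39 and 0.97. Of the 20 listed genes, different ones were measured in each cell type, some perhaps only through the library where they were high. The counts and medians of the 2 cell types are thus over unlike sets. The plot of levels by library shows both cell types side by side.

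**Figure D4:**
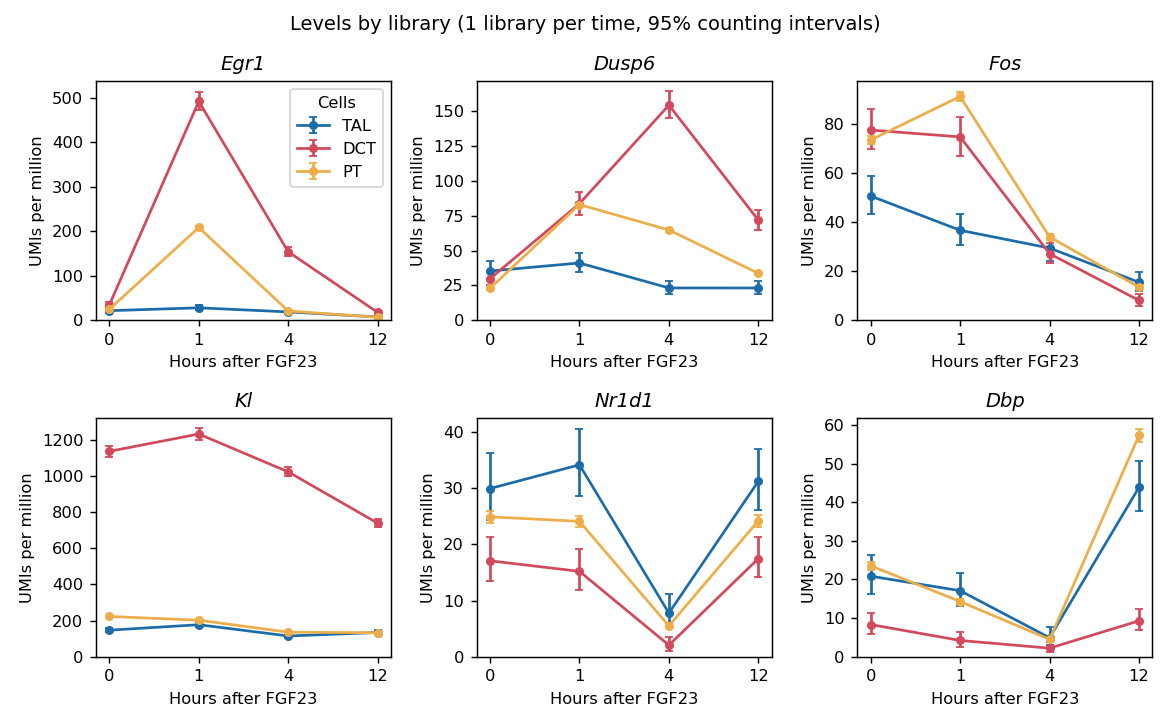
Levels of Egr1, Dusp6, Fos, Kl, Nr1d1 and Dbp at 0, 1, 4 and 12 h in TAL, DCT and proximal tubule (PT) barcodes, in CPM with 95% counting intervals, 1 library per time. Egr1 reached 492 CPM in DCT at 1 h and 27.6 CPM in TAL, while Nr1d1 was lowest at 4 h in all 3.

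Circadian clock genes were low together in TAL cells at 4 h. The list held output genes and repressors that peak in the same phase as Dbp. All 6 measured members of 10 listed were 2-fold or more lower at 4 h (0.811% of all genes were), with a median log2 ratio of -1.45. Nr1d1 (REV-ERB alpha, a repressor) stood at 30.0, 34.2, 7.78 and 31.3 CPM at 0, 1, 4 and 12 h, a log2 ratio at 4 h of -1.94 (-2.58 to -1.35). Nr1d2 stood at 40.5, 36.3, 16.3 and 39.4 CPM, Per3 at 24.1, 20.3, 8.04 and 22.4 CPM and Tef at 48.2, 39.5, 22.8 and 51.8 CPM. In each of these only the 4 h library was low. Per1 stood at 14.7, 17.6, 7.26 and 9.80 CPM. Among female-called barcodes not all of the 6 passed 2-fold. There the log2 ratio at 4 h was -0.83 for Nr1d2, -0.57 for Tef and -0.12 (-1.13 to 0.88) for Per1. Nr1d1 (-1.29), Per3 (-1.07) and Dbp (-2.06) did pass it. Among male-called barcodes each was 2-fold or more lower, with Per1 at -2.23 (-3.84 to -0.86).

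Dbp itself stood at 20.9, 17.1, 4.93 and 43.9 CPM, low at 4 h and highest at 12 h. By sex, its log2 ratio at 12 h was 1.53 (0.88 to 2.24) among male-called barcodes but 0.07 (-0.58 to 0.73) among female-called ones. Of the opposite phase, Arntl (BMAL1, the activator) stood at 6.76, 8.15, 15.3 and 5.13 CPM and Cry1 at 1.17, 1.84, 7.26 and 3.50 CPM. The log2 ratio of Arntl at 4 h was 1.62 (0.31 to 3.19) among male-called barcodes but 0.19 (-0.99 to 1.37) among female-called ones. Cry1 at 0 h had 4 UMIs in female-called and 0 in male-called barcodes. Other cells held fewer members of the Dbp-phase list past 2-fold, but each cell type had its own measured members, so the sets differ. At 4 h, 3 of 8 measured members were 2-fold or more lower in DCT cells (median -0.57; 3.19% of all genes were lower) and 1 of 4 in principal cells (median -0.69; 0.613%). The counts were 5 of 10 in proximal tubule cells (median -1.12; 2.91%) and 1 of 7 in endothelial cells (median -0.83; 1.59%). Nr1d1 was at a log2 ratio of -3.05 in DCT, -3.84 in principal and -2.18 in proximal tubule cells, while in principal cells Tef was at 0.10 and Per3 at -0.23. Differences between cell types were not tested. The list's median at 4 h in TAL cells was -0.95 in female-called and -2.11 in male-called barcodes. The labels used here give no time of day, so hours after the injection and the hour of collection cannot be told apart.

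Because these genes were low together, their promoters are shown for known clock motifs. RefSeq promoters (build GRCm38.p6, 250 bases before the start) were found for 9 of the 10 listed genes. The E-box CACGTG, which reads alike on both strands and is bound by CLOCK and BMAL1, was in the promoters of 4 genes (Tef, Per1, Ciart and Bhlhe41), and in 6.02% of all 32851 promoters. The D-box TTATGTAA, searched on both strands and bound by DBP and TEF, was in 1 gene (Per3, 2 copies) and in 0.819% of all promoters. AGGTCA on either strand, a core of nuclear receptor sites, was in 2 genes (Nr1d2 and Per1) and 14.02% of all promoters. None of these matches overlapped another. The list is counted by gene and the shares by promoter. Counted by gene, the E-box was in 6.86%, the D-box in 0.977% and AGGTCA in 15.8% of 27025 genes. Below is 1 promoter for each measured gene with an E-box or D-box, with only those 2 motifs in capitals, given 5′ to 3′ on the gene's strand: Tef chr15:81802423-81802672 (plus strand, first of 2 promoters), Per1 chr11:69098699-69098948 (plus strand, first of 2) and Per3 chr4:151044666-151044915 (minus strand).
Tef: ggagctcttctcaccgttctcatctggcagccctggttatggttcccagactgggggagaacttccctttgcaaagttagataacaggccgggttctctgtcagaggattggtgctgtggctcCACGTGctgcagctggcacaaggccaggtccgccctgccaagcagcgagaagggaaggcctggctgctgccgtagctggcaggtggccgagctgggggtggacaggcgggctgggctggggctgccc
Per1: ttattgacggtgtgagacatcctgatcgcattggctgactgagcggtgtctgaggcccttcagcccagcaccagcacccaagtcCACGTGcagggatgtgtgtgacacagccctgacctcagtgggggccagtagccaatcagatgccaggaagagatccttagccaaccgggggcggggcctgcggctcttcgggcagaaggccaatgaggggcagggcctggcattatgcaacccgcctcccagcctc
Per3: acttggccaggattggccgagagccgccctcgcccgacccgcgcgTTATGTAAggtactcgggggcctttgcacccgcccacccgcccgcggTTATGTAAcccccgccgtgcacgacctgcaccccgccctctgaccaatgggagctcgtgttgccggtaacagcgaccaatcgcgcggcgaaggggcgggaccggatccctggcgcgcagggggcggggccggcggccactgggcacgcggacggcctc
The Tef and Per1 E-boxes shown begin 127 and 166 bases before the start, and the Per3 D-boxes 205 and 158 bases before it. The second Tef promoter, not shown, also held an E-box, 138 bases before its start, while the second Per1 promoter held none of the 3 motifs. Dbp and Nr1d1 had none of the 3 motifs in this window. Of the 5 listed genes of the opposite phase, 1 (Cry1) held an E-box, 0 a D-box and 2 AGGTCA. A match is a description of sequence, and no binding was measured.

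Of the 15 genes spread over many TAL cells at 4 h, 5 were higher and 10 lower, and 4 of the latter were the clock genes Nr1d1, Nr1d2, Per3 and Tef. Txnip, an inhibitor of thioredoxin and glucose uptake, stood at 510, 546, 243 and 240 CPM and was found in 86.0% of TAL barcodes at 0 h and 63.2% at 4 h. Pdk4, which holds back pyruvate oxidation, stood at 24.4, 32.1, 6.23 and 8.17 CPM. Both were lower at 4 h outside TAL cells too. The log2 ratios of Txnip and Pdk4 were -1.07 and -1.97 in TAL cells and -0.87 and -0.77 in all other barcodes together. Txnip was at -1.30 in DCT, -0.31 in principal and -2.09 in proximal tubule cells. Tfrc, the transferrin receptor, stood at 63.7, 44.2, 24.1 and 42.7 CPM (log2 ratio at 4 h -1.40, -1.77 to -1.04). Its ratio was -0.54 in all other barcodes together. Rgs6 stood at 27.9, 25.5, 12.7 and 19.1 CPM, a log2 ratio of -1.13 at 4 h. It was also lower at 4 h in DCT (-0.39) and principal cells (-0.47), but not in proximal tubule cells (0.48). In all other barcodes together the ratio was 0.37, at low levels (2.45 CPM at 0 h and 3.17 CPM at 4 h). Differences between cell types were not tested.

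Gadd45g, a stress-response gene, stood at 247, 209, 104 and 86.1 CPM. Its log2 ratio at 4 h was -1.24 in TAL cells and -2.23 in all other barcodes together. By sex, male-called TAL barcodes went from 380 to 57.3 CPM at 4 h and female-called ones from 135 to 154 CPM. Txnip had log2 ratios at 4 h of -1.83 in male-called and -0.50 in female-called barcodes. The difference between sexes has 1 library per time and was not tested. Usp50 was the remaining gene of the 10 lower ones.

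Among the 5 higher at 4 h were Sdf2l1, an endoplasmic reticulum chaperone cofactor gene (25.3, 18.9, 56.6 and 12.1 CPM), Pdilt, Rnaset2a and AY036118. By sex, the log2 ratio of Sdf2l1 at 4 h was 1.87 (1.17 to 2.64) among male-called barcodes but 0.21 (-0.34 to 0.77) among female-called ones. The transcript AY036118 stood at 11.7, 10.3, 48.0 and 107 CPM in TAL cells and was higher in all other barcodes as well, by 1.89 at 4 h and 3.09 at 12 h on the log2 scale. At 12 h the spread genes were 7 higher (AY036118, Pgam2, Lars2, Tmem267, Dbp, Ece1 and Borcs6) and 7 lower (Izumo4, Rgs2, Dr1, Sdf2l1, Txnip, Gadd45g and Pdk4). Lars2 was higher by 1.44 in TAL cells and by 1.53 in all other barcodes.

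Part of the injury list was 2-fold or more higher at 4 h, and the metallothionein genes Mt1 and Mt2 were highest at 4 h without reaching 2-fold. Mt1, which binds zinc, stood at 1002, 1111, 1766 and 1156 CPM (log2 ratio at 4 h 0.82, 0.76 to 0.88) and Mt2 at 112, 140, 198 and 157 CPM. Tnfrsf12a, the TWEAK receptor, stood at 13.2, 18.1, 35.02 and 16.6 CPM in TAL cells (log2 ratio at 4 h 1.41, 0.91 to 1.93) and 12.2, 116, 396 and 84.8 CPM in DCT cells. Spp1 (osteopontin) stood at 2425, 2360, 3677 and 2357 CPM, also below 2-fold. Of 12 measured injury genes, 5 were 2-fold or more higher at 4 h (1.07% of all genes were), with a median of 0.89, and 6 of 14 at 12 h (0.876%), with a median of 0.52. The list held 21 genes, and the count minimum favours those that were higher later. Other cells, over unlike measured sets, also held members 2-fold or more higher at 4 h. These were 7 of 12 in DCT (median 1.48, 2.97% of all genes) and 7 of 15 in principal cells (0.92, 2.72%). They were 4 of 21 in proximal tubule (median 0.08, 2.18% of all genes) and 5 of 16 in endothelial cells (0.27, 1.27%). Krt18, with 16, 27, 64 and 112 UMIs at 0, 1, 4 and 12 h, was measured at 4 and 12 h but not at 1 h. With each gene's highest barcode left out the median at 4 h was 0.30. With a mitochondrial limit of 25%, which left out most TAL barcodes, the median was 1.66. Endothelial and intercalated cell markers in TAL barcodes were also higher at 4 and 12 h, as given above, and their part in the list was not tested.

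The NF-kB list had 12 of 13 measured genes above 0 h at 4 h, none by 2-fold, with a median of 0.39. Over all genes, 4673 of 8750 were above 0 h at 4 h, with a median of 0.02. Nfkbia, the pathway's inhibitor, stood at 23.5, 32.1, 33.2 and 26.6 CPM, and Tnfaip2 at 55.8, 64.7, 85.9 and 76.8 CPM. The median was 0.14 at 1 h and -0.01 at 12 h.

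**Figure D5:**
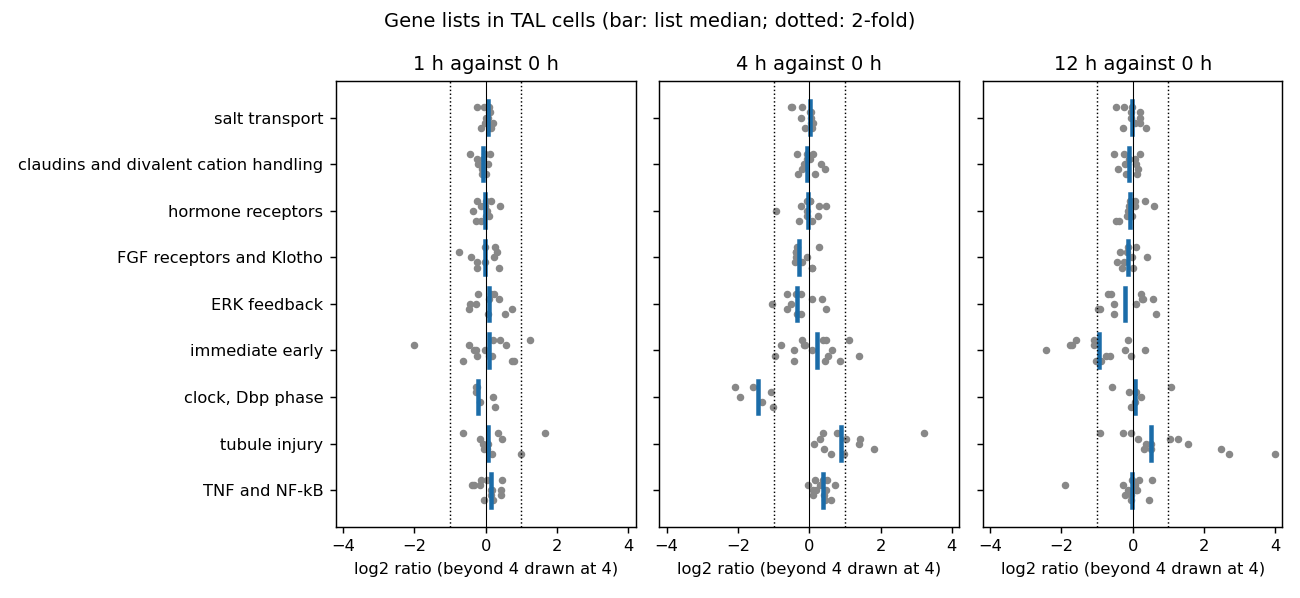
Log2 ratios to 0 h of each measured gene of the lists in TAL barcodes at 1, 4 and 12 h, with list medians, and values beyond 4 drawn at 4. The Dbp-phase clock genes lie below 0 at 4 h (median -1.45) and the salt transport genes near 0 at every time.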

How the data were processed

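Single-cell libraries were made with 10x Genomics 3' chemistry, 1 per time, and the deposited values are UMI counts per gene and barcode that the authors made with Cell Ranger 3.1.0, per the submitters' processing notes, which also list STAR, Seurat and mm10. Labels do not tie a library to single animals. The 4 libraries held 12245 to 13813 deposited barcodes and 139675666 to 158838728 UMIs. The members and gene lists were chosen with earlier results of these data known. Barcodes were gated on raw counts as described above. UMIs of TAL barcodes were summed per library (3404421 to 4286410) and divided by the sum to give CPM, with 95% exact Poisson intervals, exact binomial intervals for shares and exact conditional binomial intervals for ratios. PCR errors and differences between animals are outside these intervals.

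Cell types were compared with edgeR 4.0.16 (R 4.3.3), using TMM factors, its filter on low counts and library as a block, with Benjamini-Hochberg adjustment. The block rests on both sums coming from 1 library. The code was tested on simulated data. Doublets were called per library by scoring simulated doublets among 30 neighbours on 30 principal components at a rate of 0.8% per 1000 barcodes, and calls were kept in the sums. Of kept barcodes, 370 had a sequence found in more than 1 library. Shares were thinned to 2000 UMIs, for proximal tubule from 1000 sampled barcodes per library. The computations used Python 3.11.15, numpy 2.4.6, pandas 2.3.3, scipy 1.17.1, scikit-learn 1.9.0 and matplotlib 3.10.9.

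Named over time were up to 6 genes per direction with the largest 2-fold difference among those with 100 or more UMIs, the same direction in both sexes and a level at least 0.25 of that in other barcodes. Named between cell types were up to 8, and between claudin types up to 10, with the largest fold past the threshold at 50 CPM or more and 1 direction in all 4 libraries. Mitochondrial, ribosomal, haemoglobin, immunoglobulin, sex-linked, clone-named and gate genes were left out, and list and marker genes could also be named. Genes described as spread over many cells were chosen after values were seen. Alternatives covered gates, mitochondrial limit, doublets, other cell types' markers, sex, normalization, count minimum, DESeq2 1.42.0, the block and each library. Leaving out each gene's highest barcode, and removing doublets together with other types' markers, were added after seeing the data. Some genes that met these rules or belong to the lists are not reported here.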

Additional observations from a re-analysis of the deposited data

Results flagged for a closer look

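Several values went in opposite directions at different times or in different sexes, and none of these differences was tested, because each time has 1 library. Dbp, a clock output gene, was at a log2 ratio to 0 h of -2.08 at 4 h and 1.07 at 12 h, the latter 0.07 in female-called and 1.53 in male-called barcodes. Sdf2l1, an endoplasmic reticulum chaperone cofactor gene, was at 1.16 at 4 h (0.21 in female-called and 1.87 in male-called barcodes) and -1.06 at 12 h. Fabp4, a fatty acid binding protein gene of endothelium and fat, was at -1.94 at 1 h and 1.82 at 4 h, and 53.0% of its UMIs at 4 h were in 1 barcode. Within female-called and within male-called barcodes its ratio at 4 h was 0.08 and 0.25. Egr1 at 4 h was at 0.76 in female-called and -1.70 in male-called TAL barcodes. These comparisons share the 0 h library.

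A signal also appeared in barcodes that the rule leaves out. The 24 barcodes with 3 or more Slc12a1 UMIs but under 3 of Umod held Nos1, a marker of the macula densa, at 280 CPM (counting interval 191 to 395), against 2.41 CPM (1.70 to 3.32) in the 1681 TAL barcodes. Nos1 UMIs were in 9 of the 24 and 13 of the 1681.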

How the results depend on the processing

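Counts of genes past 2-fold depended on the count minimum. With 20 UMIs they were 157 higher and 129 lower at 1 h, 264 and 201 at 4 h, and 235 and 158 at 12 h. With 100 UMIs they were 10 and 9, 32 and 22, and 35 and 23. The median mitochondrial share of TAL barcodes was 34.7% to 37.7% by library. A limit of 25% thus left out most of them, and values under it rest on fewer UMIs. A mitochondrial limit of 25% gave 89 higher and 18 lower at 1 h and 148 and 30 at 4 h, immediate early medians of -0.64, -0.21 and -1.88 at 1, 4 and 12 h, an ERK feedback median of -0.27 at 1 h, 420 and 275 genes for TAL against DCT, and 69 and 101 for the claudin types. It reversed Npnt (2.92), S100a8 (3.09), S100a9 (2.17) and S100g (-2.60) at 1 h, S100a8 (2.37) and S100a9 (3.04) at 4 h, Aadat at 12 h (3.76) and Dr1 at 12 h (0.0802). A gate of 5 UMIs gave 17 higher at 1 h and an immediate early median of -0.56 at 12 h. Without doublet calls 20 genes were lower at 1 h, and Fabp4 at 1 h (0.53), S100a8 at 4 h (1.41) and S100a9 at 4 h (1.01) reversed. Without barcodes holding other types' markers there were 19 higher and 23 lower at 1 h, 42 higher at 4 h and 39 higher at 12 h, with immediate early medians of -0.22, -0.26 and -1.32, and Fxyd4 at 1 h (0.38), Aadat (0.00811), Lyz2 (-1.72) and Plac8 (-0.31) at 12 h reversed. With both removed there were 18 and 17 at 1 h, 42 higher at 4 h and 27 higher at 12 h, immediate early medians of -0.43 at 4 h and -1.31 at 12 h and an ERK feedback median of -0.51 at 12 h, and Fxyd4 at 1 h (0.38) and Aadat at 12 h (0.23) reversed. Female-called barcodes gave 18, 52 and 36 higher at 1, 4 and 12 h, immediate early medians of -0.71 at 1 h and -0.0823 at 4 h, and Gadd45g reversed at 4 h (0.19). Male-called barcodes gave 24 higher at 1 h and 55 at 4 h, and medians at 1 h of -0.32 for immediate early and -0.29 for ERK feedback genes. The mean of per-cell CPM gave 134 higher at 12 h. Leaving out each gene's highest barcode gave 13 higher at 1 h, 53 higher at 4 h, 34 lower and an immediate early median of -0.58 at 12 h, and 153 lower for the claudin types. For the latter, DESeq2 gave 94 higher and 151 lower, no filter on low counts 269 higher, and typing after thinning 156 lower. The causes were not tested.

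Without the replicate block (library), the counts were 715 higher and 496 lower for TAL against DCT, 1035 and 998 for TAL against principal cells, and 145 and 151 for the claudin types. Leaving out 1 library at a time gave 718 to 827 and 505 to 544, 1035 to 1121 and 950 to 1070, and 122 to 168 and 174 to 269, in the same order. No paired analysis was possible because each time has 1 library, for the comparisons over time. The Dbp-phase clock median at 4 h was negative under each alternative for which it was computed, which leaves out the count minimums, and ranged from -2.11 in male-called to -0.95 in female-called barcodes. Counting noise limits genes of few UMIs most.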

Other observations

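The Slc12a1 barcodes outside the Umod limit differed from TAL cells in other genes as well. Pappa2 stood at 122 CPM in these 24 barcodes and 0.717 CPM in TAL cells, Ptgs2 (cyclooxygenase-2) at 131 and 1.30 CPM, and Robo2 at 227 and 4.04 CPM. Egf was low there, at 271 against 5322 CPM, while Slc12a1 stood at 4727 against 6284 CPM and Kcnj1 at 288 against 461 CPM. These barcodes were set apart by their Umod UMIs, so the values are a description.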
